A study of Mus musculus with 9 samples.

Results

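The Hippo pathway was followed in the mouse pituitary through 10 genes, out of 55450 genes counted. They follow the pathway's known outline: the transcriptional coactivators *Yap1* and *Wwtr1* (which encodes TAZ), their DNA-binding partners *Tead1*, *Tead2*, *Tead3* and *Tead4*, the kinases *Lats1* and *Lats2*, and the target genes *Ctgf* and *Cyr61* (listed in current annotation as *Ccn2* and *Ccn1*). RNA was sequenced in 9 libraries. The embryo group held 7 Rathke's pouches, each from a Sox2Egfp/+ embryo at e13.5 (2 male and 5 female, not assigned to single libraries). The adult group held 2 pituitaries from mice at postnatal week 8 (1 male and 1 female), without the posterior lobe. Adult RNA thus came from the intermediate as well as the anterior lobe. These samples are labelled as anterior pituitary. All animals had the mixed strain background 129Sv/c57BL6J. The Sox2 genotype of the adults was not given in the sources used here, so stage, the Sox2Egfp allele and the dissected tissue cannot be told apart.

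In the Hippo pathway, the kinases MST1 and MST2 activate LATS1 and LATS2, which phosphorylate YAP and TAZ and so hold them in the cytoplasm or mark them for degradation. Unphosphorylated YAP and TAZ enter the nucleus, bind TEAD transcription factors and switch on genes of growth and matrix remodelling. In the pituitary, the pathway is known to restrain the expansion of SOX2-positive progenitors, and YAP and TAZ are found in these cells in the embryo and the adult. Much of this control acts on proteins, which counts of RNA do not measure.

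Read pairs counted on genes ranged from 16738863 in embryo 1 to 36421545 in adult 1. All 10 genes had at least 30 counts in every library, and all passed the filter on low counts (a mean of at least 5). Embryos 1 and 4 stood apart before any comparison of genes, with 59.7% and 62.8% of their read pairs assigned to a gene. The adults reached 83.7% and 84.0%, and the remaining embryos lay between 73.9% and 80.0%. In these 2 libraries, 7 erythroid genes took 13.8% and 16.0% of the counts, against 0.734% to 1.96% in the other embryos. The calls of genes, the shares and ratios, and the counts per list were therefore also computed without them. The order of levels and the nearest profiles were not, and spreads over embryos were recomputed only with single embryos left out.

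The labelled tissues were checked against their markers. *Hesx1*, a gene of the early pouch, ranged from 11.0 to 40.4 CPM (read counts scaled to a common library size with TMM factors) in the embryos and was at 0.339 and 0.562 CPM in the adults. *Gh*, the growth hormone gene, was at 53470 and 63848 CPM in the adults and at 1.90 CPM or less in the embryos. *Pax7*, which marks the melanotrophs of the intermediate lobe, was at 86.7 and 95.1 CPM in the adults and at 0 in 6 of 7 embryos. The adult libraries thus held both lobes.

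Of the 10 Hippo pathway genes, 6 were higher in the embryo (*Yap1*, *Wwtr1*, *Tead2*, *Tead3*, *Tead4* and *Lats2*) and 2 were higher in the adult (*Tead1* and *Lats1*) at an adjusted p below 0.05 in edgeR's quasi-likelihood test with Benjamini-Hochberg adjustment over 19371 tested genes. The targets *Ctgf* and *Cyr61* did not pass. Across all tested genes, 24.0% were higher in the embryo and 27.4% higher in the adult by this rule. With a fold change above 4 as well, *Tead2* and *Tead3* were called for the embryo and *Lats1* for the adult, where 11.3% and 14.6% of tested genes were called in these directions. Calls were thus frequent throughout the transcriptome: 6 of 10 lay above the background for the embryo, and 2 of 10 did not exceed that for the adult. Every embryo lay above both adults for 6 of 10 (26.2% of tested genes) and below both for 2 of 10 (32.9%). With scaling by library size alone the genes that passed were 4 and 2 (18.4% and 28.7% of tested genes), and with either adult left out 3 genes were higher in the embryo (14.0% of tested genes without adult 1 and 12.7% without adult 2). Because whole tissue was sequenced, fewer cells of a type and less RNA per cell cannot be told apart.

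**Figure D1:**
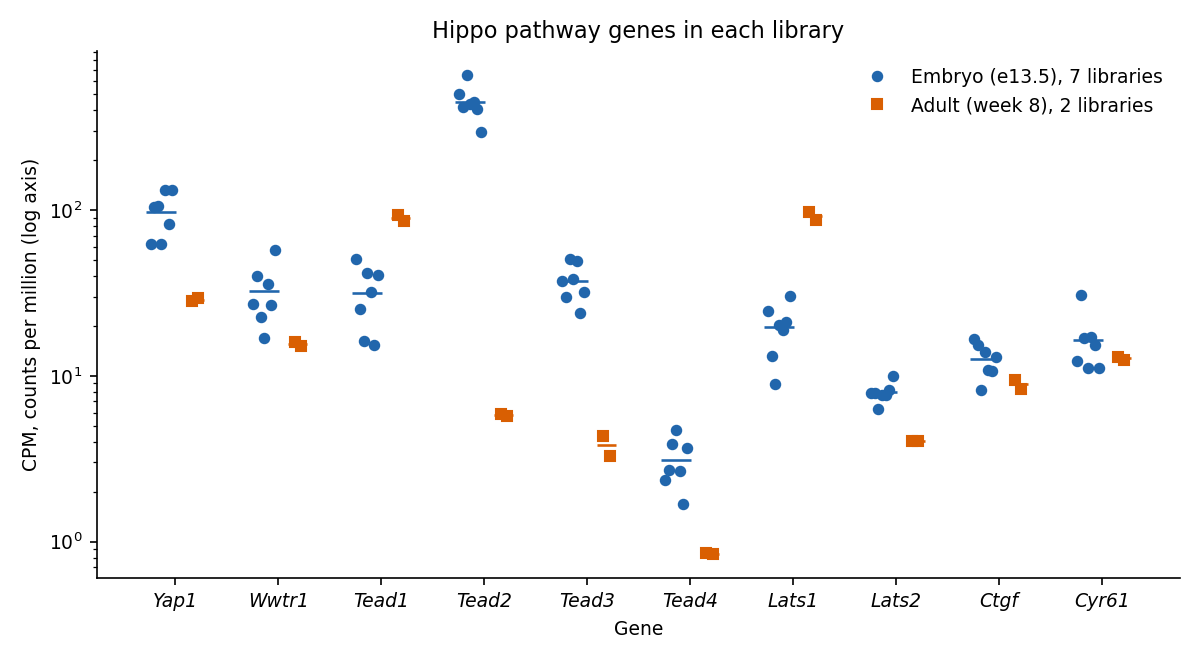
Level of each Hippo pathway gene in CPM (log axis) in the 7 embryo libraries (circles) and the 2 adult libraries (squares), with the mean of each group as a line. The embryo and adult points do not overlap for 8 genes, as for 59.1% of all tested genes, and overlap for Ctgf and Cyr61.

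*Yap1* (ENSMUSG00000053110, chr9:7931999-8004596 of GRCm38, minus strand) encodes the coactivator YAP. Its level in the embryos was 62.2 CPM at the lowest, 104 at the median and 131 at the highest, and 28.1 and 29.4 CPM in the adults. Every embryo lay above both adults. Embryos 1 and 4 were the lowest embryos, and embryos 5 and 7 the highest. The difference was 3.38-fold (log2 fold change 1.76 ± 0.36 SE, adjusted p = 0.00107).

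*Wwtr1* (ENSMUSG00000027803, chr3:57455649-57575910, minus strand) encodes TAZ, the paralog of YAP. Its level was 17.0 CPM in the lowest embryo, 27.1 at the median and 57.4 in the highest, and 15.9 and 15.2 CPM in the adults. The groups did not overlap, but embryo 4 came close to the adults, and embryo 7 had more than any other library on this scale. The log2 fold change was 1.06 ± 0.41 (SE), with an adjusted p of 0.0406. This call was lost without embryo 2 (adjusted p = 0.0593), embryo 5 (0.0595), adult 1 (0.168) or adult 2 (0.196), and with scaling by library size alone (0.166).

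The balance of the 2 coactivators was compared within each library from levels divided by the length of the merged exons. The log2 ratio of *Wwtr1* to *Yap1* was −0.67 ± 0.39 (SD, n = 7) in the embryos and 0.07 ± 0.10 (SD, n = 2) in the adults. All embryos, from −1.28 to −0.24, lay below both adults, at 0.13 and 0.00. The level of the ratio depends on the length used. Over the longest transcripts it was −1.45 ± 0.39 in the embryos and −0.72 ± 0.10 in the adults, so *Yap1* exceeded *Wwtr1* in each embryo on both lengths, and in the adults on the longest transcript. An exact two-sided permutation test gave p = 0.0556, the smallest that 7 against 2 libraries can give (0.0648 after adjustment over the 7 such measures tested).

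The 4 TEAD factors bind DNA through a shared domain and recruit YAP or TAZ. None of the 75-base stretches of their transcripts, the length of a read, occurs in another gene, so their counts can be kept apart. *Tead2* (ENSMUSG00000030796, chr7:45215753-45233644, plus strand) had the largest difference of the 10 genes. Its level in the embryos ran from 296 CPM through a median of 434 to 654, and it was at 5.84 and 5.74 CPM in the adults. Embryo 3 had the most and embryo 7 the least, and even embryo 7 lay far above the adults. The difference was 77.8-fold (log2 fold change 6.28 ± 0.44 SE, adjusted p = 2.21e-07).

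*Tead3* (ENSMUSG00000002249, chr17:28331671-28350817, minus strand) differed in the same direction. Its level was 23.8 CPM in the lowest embryo, 37.3 at the median and 50.6 in the highest, and 4.32 and 3.29 CPM in the adults. The groups were far apart, at a log2 fold change of 3.29 ± 0.39 (SE, adjusted p = 1.62e-05).

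*Tead4* (ENSMUSG00000030353, chr6:128224288-128300823, minus strand), best known for its role in the trophectoderm, had the lowest level of the family, with 1.68, 2.703 and 4.73 CPM in the lowest, median and highest embryos and 0.849 and 0.843 CPM in the adults. Each embryo lay above both adults, on 30 to 114 counts per library. The log2 fold change was 1.87 ± 0.56 (SE, adjusted p = 0.0129), and the call was lost without adult 1 (adjusted p = 0.0991) or adult 2 (0.101).

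*Tead1* (ENSMUSG00000055320, chr7:112679318-112906807, plus strand) went the other way. It was at 15.3 CPM in the lowest embryo, 32.2 at the median and 50.8 in the highest, and at 92.7 and 86.3 CPM in the adults. All embryos lay below both adults. Embryos 1 and 4, the libraries with many erythroid counts, were the highest embryos, and embryos 3 and 6 the lowest. The log2 fold change was −1.50 ± 0.37 (SE, adjusted p = 0.00416), and −1.76 without embryos 1 and 4. This difference was not seen after a correction of the libraries for length and GC content of the transcripts (log2 fold change 0.24 ± 0.35, adjusted p = 0.584).

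The make-up of the TEAD transcripts differed accordingly between the stages. *Tead2* made up 91.3% ± 2.32 (SD, n = 7) of the summed per-length level of the 4 genes in the embryos, and 14.1% ± 0.57 (SD, n = 2) in the adults. *Tead1* made up 2.42% ± 1.20 in the embryos and 76.6% ± 0.20 in the adults. No embryo came below 87.6% for *Tead2* or above 4.26% for *Tead1*. The share of *Tead3* was 5.45% ± 1.13 in the embryos and 6.56% ± 0.91 in the adults, with overlapping values, and *Tead4* had 0.870% ± 0.359 and 2.74% ± 0.13. The exact two-sided permutation test gave p = 0.0556, the smallest possible, for *Tead1*, *Tead2* and *Tead4*, and p = 0.222 for *Tead3*.

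The summed per-length level itself differed as well. It was 103 ± 23.5 CPM per kb (SD, n = 7) in the embryos and 8.61 ± 0.46 (SD, n = 2) in the adults, with the lowest embryo at 70.5. With levels corrected for length and GC content, *Tead1* still had 56.0% and 53.9% of the sum in the adults and at most 4.13% in the embryos, while *Tead2* had 25.5% and 28.5% in the adults and at least 88.1% in the embryos. *Tead3* had 13.2% and 11.5% in the adults on this scale and at most 7.00% in the embryos, so that its groups no longer overlapped. *Tead2* was thus the leading transcript in the embryo and *Tead1* in the adult on both scales, although the level of *Tead1* alone differed only on the uncorrected scale.

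**Figure D2:**
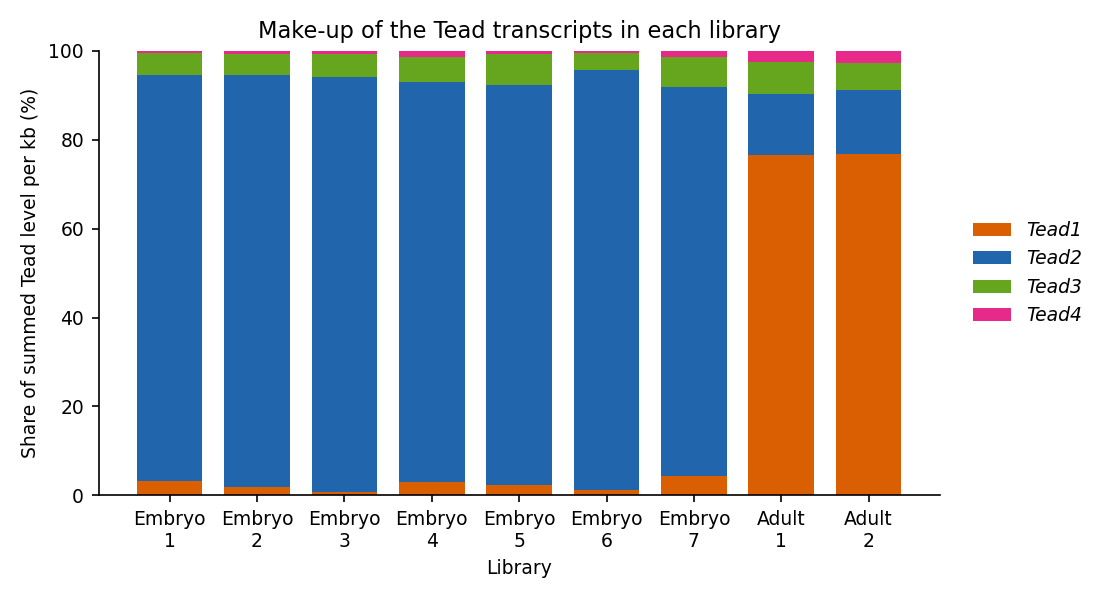
Share of each Tead gene (colours) in the summed per-length level of the 4 genes, in percent, in each of the 9 libraries. Tead2 fills most of each embryo bar and Tead1 most of each adult bar.

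*Lats1* and *Lats2* encode the kinases that phosphorylate YAP and TAZ. *Lats1* (ENSMUSG00000040021, chr10:7681214-7716460, plus strand) was at 8.98 CPM in the lowest embryo, 20.2 at the median and 30.5 in the highest, and at 97.8 and 86.8 CPM in the adults. The highest embryo, embryo 7, still lay far below either adult. *Lats1* was 4.70-fold higher in the adult (log2 fold change −2.23 ± 0.33 SE, adjusted p = 0.000101). After the correction for length and GC content the log2 fold change was −0.63 ± 0.21 (adjusted p = 0.0277), so the direction and the call held at a smaller size.

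*Lats2* (ENSMUSG00000021959, chr14:57689662-57758388, minus strand) is itself a known target of YAP and TAZ. It had 6.34 CPM in the lowest embryo, 7.84 at the median and 9.92 in the highest, and 4.02 and 4.05 CPM in the adults. Its coefficient of variation over the embryos was 13.3% (8.50% without embryo 7, and 18.7% after the length and GC correction), and every embryo lay above both adults. The log2 fold change was 0.97 ± 0.35 (SE, adjusted p = 0.0312). The call was lost without embryo 5 (adjusted p = 0.0516), adult 1 (0.172) or adult 2 (0.172), with scaling by library size alone (0.148) and with no filter on low counts (0.104). The level of *Lats2* is also uncertain: 40.6% of its 75-base stretches lie in exons shared with the overlapping gene *Gm49361* on the same strand, which had 0 counts in each library, and read pairs there can be assigned to neither gene.

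The 2 kinases therefore moved in opposite directions. The log2 ratio of *Lats2* to *Lats1*, from per-length levels, was −1.16 ± 0.44 (SD, n = 7) in the embryos and −4.45 ± 0.13 (SD, n = 2) in the adults. The ratio was highest in embryo 3 (−0.44) and lowest in adult 1 (−4.54). It was taken over the full length of *Lats2*, although part of that length cannot be counted, so the true ratio is higher in every library and its sign in the embryos nearest to 0 is uncertain. The exact two-sided permutation test again gave its smallest p, 0.0556. With the length and GC correction the ratio was −1.40 ± 0.17 in the embryos and −3.60 ± 0.21 in the adults.

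*Ctgf* and *Cyr61* encode secreted matricellular proteins and are the targets most often used to read out YAP and TAZ activity. *Ctgf* (ENSMUSG00000019997, chr10:24595442-24598683, plus strand, where 14.6% of its stretches overlap the antisense gene *Gm15270*, which the strand of the count sets apart) was at 8.24 CPM in the lowest embryo, 13.0 at the median and 16.8 in the highest, and at 9.41 and 8.38 CPM in the adults. The groups overlapped, because embryo 3 lay below both adults while the other 6 embryos lay above them. The log2 fold change of 0.51 ± 0.34 (SE) did not pass the test (adjusted p = 0.220).

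*Cyr61* (ENSMUSG00000028195, chr3:145646976-145649981, minus strand) was at 11.2 CPM in the lowest embryo, 15.3 at the median and 30.5 in the highest, and at 13.1 and 12.4 CPM in the adults. The adults lay inside the range of the embryos. Embryo 2 had the highest level, and 3 embryos had less than either adult. The log2 fold change was 0.36 ± 0.39 (SE, adjusted p = 0.450). Neither target passed in any of the 20 alternative fits, in which adjusted p ranged from 0.0757 to 0.566 for *Ctgf* and from 0.230 to 0.792 for *Cyr61*. *Cyr61* changed sign with the length and GC correction (log2 fold change −0.32 ± 0.29).

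Immediate early genes, which respond to tissue handling, moved with stage, and *Cyr61* and *Ctgf* are themselves rapidly inducible. Of 8 such genes, 4 were higher in the adult (*Fos* the most abundant there on average) and 1 in the embryo. Their summed level was 108, 228 and 475 CPM in the lowest, median and highest embryos and 929 and 708 CPM in the adults. None was at 0 throughout a group. Their part in the levels of the 2 targets was not tested.

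The promoters of the members are shown for 3 of the 6 genes that were higher in the embryo and for a target, with the core of the TEAD binding motif (GGAATG, or CATTCC on the other strand) in capitals. They are the 250 bases before the transcription start in RefSeq (GRCm38.p6), written 5′ to 3′ on the strand of the gene. Of the 10 members, 7 were matched, with 11 start sites, and *Tead1*, *Tead4* and *Ctgf* were not matched. *Yap1* (chr9:8004597-8004846), *Tead3* at its outermost start (chr17:28350806-28351055) and *Cyr61* (chr3:145649986-145650235) lie on the minus strand, and *Tead2* (chr7:45215542-45215791) lies on the plus strand.
Yap1: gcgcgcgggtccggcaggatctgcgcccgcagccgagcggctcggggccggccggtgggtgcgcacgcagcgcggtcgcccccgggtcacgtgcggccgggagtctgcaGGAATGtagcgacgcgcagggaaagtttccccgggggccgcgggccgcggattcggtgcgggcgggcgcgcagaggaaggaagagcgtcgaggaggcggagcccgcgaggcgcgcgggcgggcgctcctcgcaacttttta
Tead2: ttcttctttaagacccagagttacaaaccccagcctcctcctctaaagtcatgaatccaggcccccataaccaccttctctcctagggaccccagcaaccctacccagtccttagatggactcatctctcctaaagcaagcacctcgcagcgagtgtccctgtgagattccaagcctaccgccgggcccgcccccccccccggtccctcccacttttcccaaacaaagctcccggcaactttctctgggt
Tead3: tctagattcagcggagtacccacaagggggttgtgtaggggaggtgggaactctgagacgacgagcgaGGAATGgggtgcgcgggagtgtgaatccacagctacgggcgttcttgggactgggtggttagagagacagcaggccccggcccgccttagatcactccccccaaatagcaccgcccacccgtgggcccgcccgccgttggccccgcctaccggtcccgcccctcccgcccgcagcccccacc
Cyr61: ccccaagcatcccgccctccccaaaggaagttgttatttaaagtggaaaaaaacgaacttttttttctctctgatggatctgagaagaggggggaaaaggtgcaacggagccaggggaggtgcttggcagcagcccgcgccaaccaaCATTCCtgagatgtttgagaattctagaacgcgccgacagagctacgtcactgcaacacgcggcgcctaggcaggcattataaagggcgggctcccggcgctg

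The *Yap1* window held GGAATG with its first base 141 bases before the start, the *Tead3* window held it 182 bases before, and the *Cyr61* window held CATTCC 103 bases before. A second *Tead3* start had CATTCC at 123 and again at 114 bases before it, and both *Wwtr1* starts had GGAATG. The *Tead2* window, that of the gene with the largest difference, held neither form, nor did those of *Lats1* and *Lats2*. A further *Tead3* start (chr17:28350347-28350596) had no match either. In all, 4 of 7 members had a match, and 6 of 11 windows, several of which overlap. Of all 32851 windows of this length, 12.6% had one. A match is a description of these letters only.

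The size of several differences depended on transcript length. Among all tested genes, the log2 fold change had a median of 1.26 in the fifth with the shortest transcripts (longest isoform of 55 to 1479 bp) and −1.11 in the fifth with the longest (4874 to 123179 bp). After the correction it was −0.08 and 0.12. *Yap1*, *Tead1*, *Lats1* and *Lats2* belong to the fifth with the longest transcripts, *Wwtr1* to the next, *Tead2*, *Tead3*, *Tead4* and *Ctgf* to the middle, and *Cyr61* to the second shortest. The cause of this trend was not tested.

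After correction, the long genes moved toward the embryo, *Tead2*, *Tead3*, *Tead4* and *Ctgf* moved less than any of these, and *Cyr61* moved toward the adult. *Yap1* had a log2 fold change of 2.83 ± 0.32 (adjusted p = 3.07e-05), *Wwtr1* 2.03 ± 0.33 (0.000407) and *Lats2* 1.57 ± 0.32 (0.00175). *Tead2* was at 6.24 ± 0.37 (adjusted p = 3.09e-07), *Tead3* at 3.26 ± 0.31 (9.12e-06) and *Tead4* at 1.71 ± 0.52 (0.0165). The 6 genes that were higher in the embryo were so on both scales, and *Lats1* was the only member higher in the adult on both. In corrected CPM, *Tead1* was at 36.1 and 32.4 in the adults, inside the embryo range of 21.5 to 67.7, whereas *Lats1* was at 40.5 and 34.4 in the adults and at most 30.6 in the embryos.

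**Figure D3:**
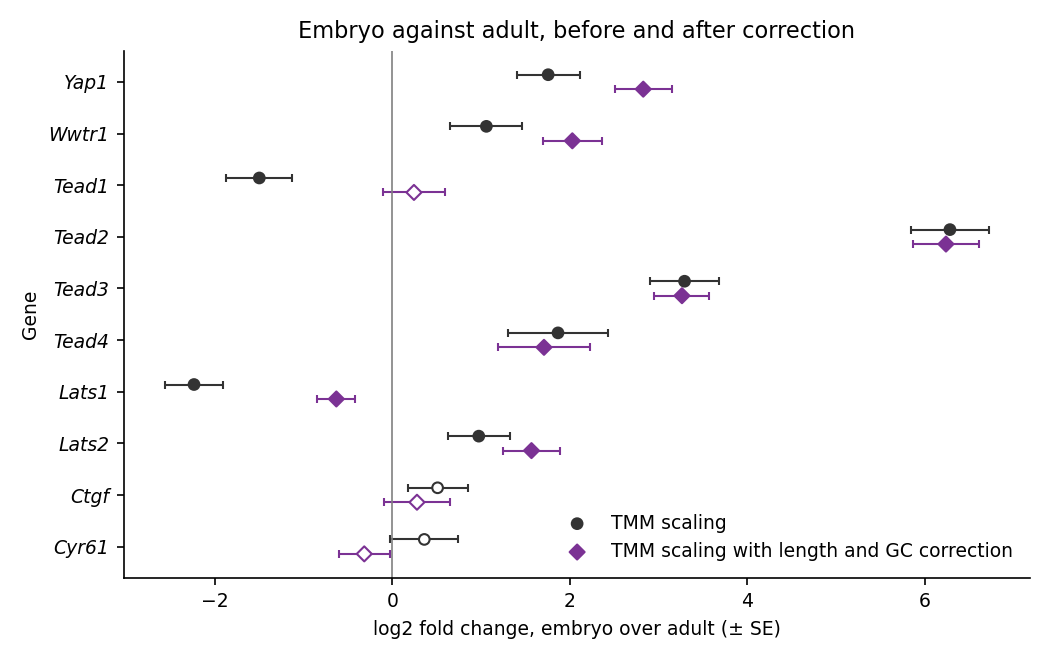
Log2 fold change of embryo over adult with its standard error for each Hippo pathway gene, before (circles) and after (diamonds) the correction for length and GC content of transcripts; filled symbols have an adjusted p below 0.05. Tead2, Tead3 and Tead4 keep their place, Yap1, Wwtr1 and Lats2 move up, and Tead1 loses its difference.

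Within each stage, the 10 genes were ordered by their mean level per length. In the embryo, *Tead2* led with 94.1 ± 22.7 CPM per kb (SD, n = 7) and was the only gene whose range did not overlap that of the next. It ranked 613 of the 19371 tested genes, whereas in the adult it ranked 12666. *Yap1* (10.5 ± 3.15), *Cyr61* (8.09 ± 3.33), *Wwtr1* (6.78 ± 2.81), *Tead3* (5.56 ± 1.47) and *Ctgf* (4.43 ± 1.03) followed, each overlapping the next. *Lats1* (2.69 ± 0.97), *Tead1* (2.34 ± 0.998), *Lats2* (1.14 ± 0.15) and *Tead4* (0.861 ± 0.289) were the lowest. Over the longest transcripts *Tead2* and *Yap1* kept their places and *Tead3* (10.8 ± 2.87) came next.

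In the adult, the kinase *Lats1* led with 12.6 ± 1.07 CPM per kb (SD, n = 2), at rank 3214 of the tested genes against 8934 in the embryo. *Tead1* (6.60 ± 0.33) and *Cyr61* (6.31 ± 0.23) came next and overlapped each other. *Wwtr1* (3.25 ± 0.11), *Ctgf* (3.11 ± 0.25) and *Yap1* (3.11 ± 0.10) could not be told apart by their ranges on this length (over the longest transcripts *Yap1* had 5.44 ± 0.18, *Ctgf* 3.57 ± 0.29 and *Wwtr1* 3.31 ± 0.11), and *Tead2* (1.21 ± 0.016), *Lats2* (0.579 ± 0.0024), *Tead3* (0.566 ± 0.108) and *Tead4* (0.235 ± 0.0010) were the lowest. With levels corrected for length and GC content, *Cyr61* led in the adult with 8.91 ± 0.19 CPM per kb, ahead of *Lats1* with 5.13 ± 0.59, while *Tead2* still led in the embryo (93.4 ± 20.9). With 2 adults, each of these spreads rests on a single difference.

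The embryos differed among themselves as well. The highest embryo exceeded the lowest by 3.40 times for *Lats1*, 3.37 times for *Wwtr1* and 3.32 times for *Tead1*, but by 1.56 times for *Lats2*. With the length and GC correction these were 1.78, 2.43, 3.15 and 1.57 times, and *Ctgf* went from 2.03 to 3.19 times, the widest of the 10 on that scale. The coefficient of variation over the embryos was 42.7% for *Tead1*, 41.5% for *Wwtr1* and 41.2% for *Cyr61* (19.6% without embryo 2), against a median of 29.9% over tested genes with a mean of at least 5 CPM. After the length and GC correction these 3 were at 38.7%, 28.4% and 31.2%. Embryo 7 had the highest *Wwtr1*, *Lats1* and *Lats2* and the lowest *Tead2*, and embryo 3 had the highest *Tead2* and *Tead3* and the lowest *Lats1*, *Lats2* and *Ctgf*. Embryos 1 and 4 had the lowest *Yap1* and the highest *Tead1*. After correction these places were kept, except that embryo 2 had the highest *Wwtr1*, embryo 1 the highest *Lats1* and embryo 6 the highest *Lats2*. Without embryos 1 and 4, the counts of members called were the same. They were 6 for the embryo and 2 for the adult (26.9% and 29.9% of tested genes). With a fold change above 4 they were 2 and 1 (11.5% and 16.2% of tested genes). *Yap1* had a log2 fold change of 1.98 in this fit.

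The other genes of the pathway were taken as 6 lists with 70 genes in all, of which 69 could be tested. Of these, 15 were higher in the embryo and 29 in the adult at an adjusted p below 0.05 (24.0% and 27.4% over all tested genes), and 25 did not pass, while 5 and 8 had a fold change above 4 as well. Their median log2 fold change was −0.54, against −0.04 over all tested genes. With the correction for length and GC content the split was 27 and 14 (24.8% and 23.7% over all tested genes) and the median 0.27, so the list as a whole had no direction that held on both scales. Of the 44 genes that passed before the correction, 5 changed sign with it, and 1 of these passed in the new direction. Without embryos 1 and 4 the split was 18 and 28 (26.9% and 29.9%).

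The core cassette consists of the MST kinases (*Stk3* and *Stk4*), the scaffold *Sav1* and the LATS activators *Mob1a* and *Mob1b*. Of these 5 genes, 2 were higher in the adult and 0 in the embryo, with a median of −0.61. *Mob1b* had a log2 fold change of −1.57 ± 0.43 (SE, adjusted p = 0.00696 in edgeR's test) and *Stk3* of −1.07 ± 0.40 (0.0383). Neither call held after the length and GC correction, where *Mob1b* was at 0.50 (adjusted p = 0.204) and *Stk3* at −0.37 (0.308), and 2 other genes of the cassette, *Mob1a* at 1.54 (0.0104) and *Sav1* at 1.21 (0.0071), passed for the embryo. These 2 were named after their values were seen. *Mob1b* also lost its call without adult 1, and *Stk3* when any of 7 libraries was left out singly.

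The kinases that act on LATS in parallel to MST, of the MAP4K and TAO families, were listed with the NDR kinases. Of 12 genes, 8 were higher in the adult, none of them an NDR kinase, and 1 in the embryo, with a median of −1.25. After correction the counts were 6 and 2 and the median −0.53. *Tnik* was at 50.0 and 49.4 CPM in the adults and between 1.71 and 7.44 in the embryos (log2 fold change −3.56 ± 0.38, adjusted p = 6.8e-06). *Taok3* (−2.51 ± 0.29) and *Map4k2* (−1.78 ± 0.36) also lay higher in both adults than in any embryo. The exception was *Map4k1*, a kinase of blood cells, with 1.86 ± 0.41. These 4 calls held with each library left out and with the correction, where *Tnik* was at −1.49, *Taok3* at −2.12, *Map4k2* at −1.30 and *Map4k1* at 1.53. *Taok1*, named after its values were seen, went from −1.77 (adjusted p = 0.0153, and 0.0628 and 0.0718 without adult 1 or 2) to 0.50 (0.426) with the correction.

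Junction and polarity proteins, which bring the kinases to the membrane, were split. Of 20 genes, 5 were higher in the embryo and 6 in the adult, with a median of −0.01. The protocadherin ligand *Dchs1* (1.63 ± 0.43) and its partner *Fat4* (1.38 ± 0.51) were higher in the embryo, with *Crb3* (1.34 ± 0.39). *Crb1* (−2.12 ± 0.44), *Mpp5* (−1.98 ± 0.50) and *Fat1* (−1.82 ± 0.31) were higher in the adult.

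After correction the junction and polarity list had 11 genes higher in the embryo and 1 in the adult. *Dchs1* (3.12) and *Fat4* (3.27) were further from 0, while *Fat1* (−0.03, adjusted p = 0.947), *Mpp5* (−0.58, 0.306), *Crb1* (−0.86, 0.0741) and *Crb3* (0.20, 0.644) lost their calls. *Fat3*, named after its values were seen, turned from higher in the adult (−1.34, adjusted p = 0.00403) to higher in the embryo (0.99, 0.0169). *Dchs1* lost its call without adult 1, *Mpp5* without adult 2, *Crb3* without either adult, and *Fat4* without embryo 5 or either adult.

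Proteins that hold the kinases back, the LIM proteins of the Ajuba family and the STRIPAK phosphatase complex, were split by family. Of 12 genes, 5 were higher in each direction, and the median was 0.41. After the length and GC correction 6 were higher in the embryo and 2 in the adult (median 0.66). With scaling by library size alone these counts were 2 and 5. All 3 LIM genes were higher in the embryo: *Wtip* with 2.21 ± 0.41, *Ajuba* with 2.13 ± 0.30 and *Limd1*, named after its value was seen, with 0.93 ± 0.26 (a call lost with scaling by library size alone, where its adjusted p was 0.101). *Ajuba* was at 25.1 to 36.7 CPM in the embryos and at 7.37 and 6.38 in the adults. Within STRIPAK, *Slmap* (−2.35 ± 0.36), *Strn* (−1.94 ± 0.34) and *Strn3* (−1.18 ± 0.39) were higher in the adult. The calls of *Strn* and *Strn3* were lost with the correction (adjusted p = 0.474 and 0.458) and that of *Strn3* also without embryo 6 or either adult.

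The Vestigial-like proteins compete with YAP and TAZ for TEAD. Of 4 genes, 1 was higher in each direction, and the median was −0.43. *Vgll4*, a repressor of TEAD, was higher in the embryo (1.06 ± 0.40, adjusted p = 0.0394), a call lost with the correction (0.279) and when either adult, or any of 4 embryos, was left out singly. *Vgll1*, named after its values were seen, was at 2.13 and 3.54 CPM in the adults and at 0 in 6 of 7 embryos, with 0.0495 CPM in the seventh.

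A wider list of YAP and TAZ targets, chosen from knowledge of other tissues, moved in both directions. Of 18 tested genes, 4 were higher in the embryo and 7 in the adult, and the median was −0.40. *Foxf2* (3.93 ± 0.46), *Fjx1* (2.67 ± 0.41) and *Axl* (1.44 ± 0.32) were higher in the embryo. *Nt5e* (−6.24 ± 0.69), *Gadd45a* (−2.04 ± 0.36) and *F3* (−1.61 ± 0.44) were higher in the adult. After correction the counts were 7 and 4 and the median 0.37. These 6 named genes kept their calls, and *F3* lost its call without adult 1. *Ankrd1*, a further target often used as a readout, was under the filter and reached at most 0.406 CPM.

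**Figure D4:**
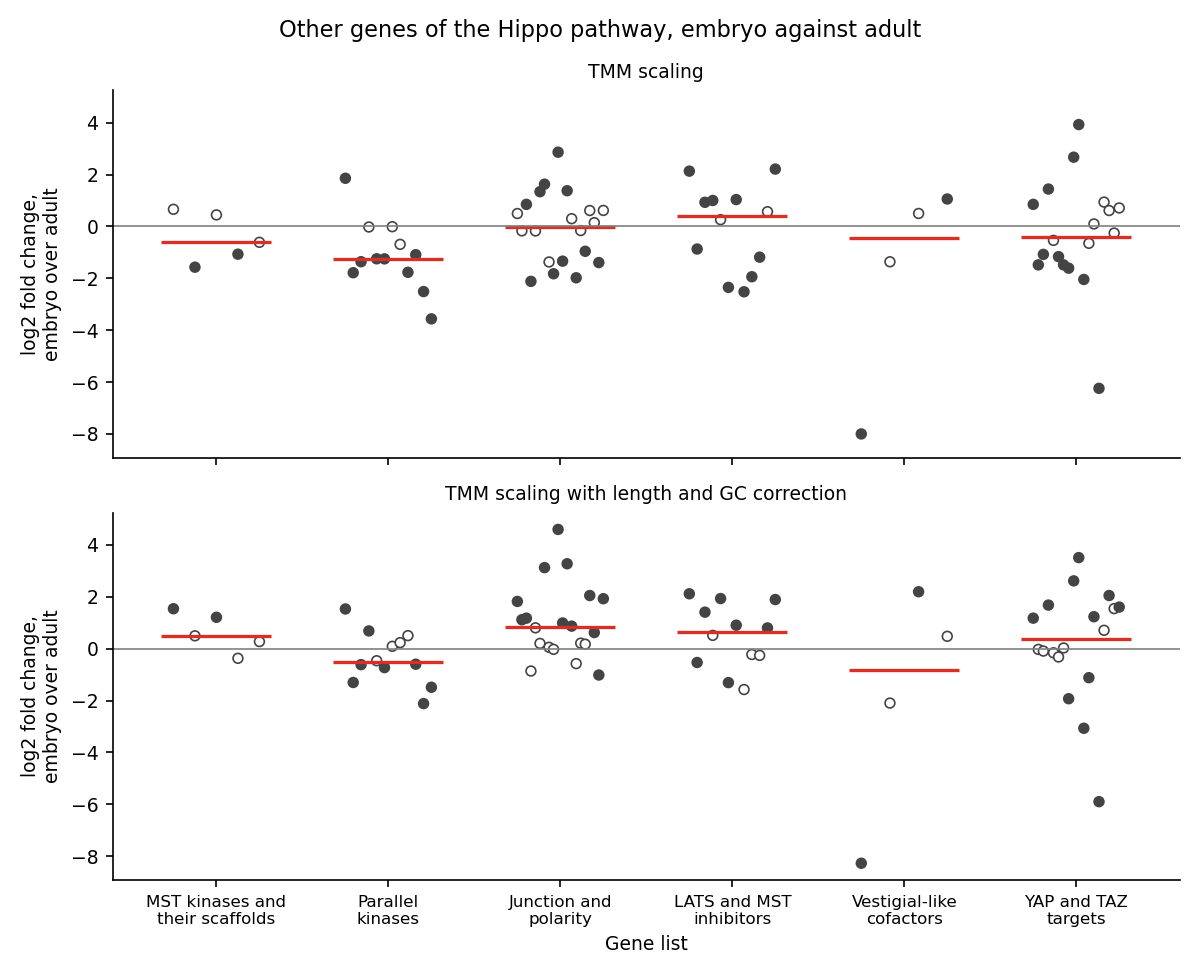
Log2 fold change of embryo over adult for each tested gene of the 6 pathway lists, before (upper panel) and after (lower panel) the correction for length and GC content of transcripts; filled points have an adjusted p below 0.05 and red lines mark list medians. The medians of the parallel kinases and the TEAD cofactors lie below 0 in both panels, and the lowest point is Vgll1, whose value is poorly determined because 6 of 7 embryos had 0 counts.

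Genes with the profile nearest to that of a member were found over the 9 libraries, by the Euclidean distance between log2(CPM + 0.5) values centred on the mean of the stage means. For *Yap1* they were *Trib2* (distance 0.545), *Zbtb12* (0.557) and *Ptk7* (0.5682), with log2 fold changes of 1.64, 1.66 and 1.53. For *Wwtr1* they were *Lhfpl2* (0.471), *Rassf2* (0.498) and *Chst15* (0.602). For *Ctgf* they were *Ttyh2* (0.508), *Dab2* (0.542) and *Airn* (0.663). For *Cyr61* they were *Rgcc* (0.408), *Rhob* (0.550) and *Vps4a* (0.566). No gene appeared in more than 1 of these lists, and neither coactivator was among the nearest genes of the other. Few genes were taken per member, and the stage difference enters the distance. Members with unlike stage differences could therefore hardly share a gene, so no conclusion is drawn from this.

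Other cell types moved with stage, and their part in the differences of the Hippo pathway genes was not tested. The gene said to lead a list has the highest mean in its group. Of 8 connective tissue genes, 5 were higher in the embryo and 1 in the adult. Their summed level was 679, 1699 and 2370 CPM in the lowest, median and highest embryos and 754 and 505 CPM in the adults, and *Col3a1* was the most abundant in the embryo and *Col1a2* in the adult. Of 8 endothelial genes, 6 were higher in the embryo and 0 in the adult. The sums were 208, 377 and 705 CPM in the embryos and 148 and 91.8 CPM in the adults, led by *Kdr* in both adults and in the mean of the embryos by *Cldn5*, or by *Emcn* without embryos 1 and 4. Both compartments are known to express YAP, TAZ and their targets.

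Embryo 2, which had the most *Cyr61*, also had the highest endothelial, mural, immune and neural sums, and embryo 7, which had the most *Wwtr1* before the length and GC correction, the highest connective tissue sum. Of 7 mural genes, 5 were higher in the embryo and 1 in the adult (174, 257 and 556 CPM in the embryos, led by *Acta2*; 139 and 82.2 CPM in the adults, led by *Rgs5*). Of 7 immune genes, 3 were higher in the embryo and 1 in the adult, or 0 and 1 after the length and GC correction (132, 161 and 333 CPM, led by *C1qb*; 92.8 and 145 CPM, led by *Csf1r*). Of 7 neural and posterior lobe genes, 3 were higher in the embryo and 2 in the adult (144, 160 and 481 CPM; 149 and 136 CPM), with *Tubb3* the most abundant on average in both groups. *Rax*, a gene of the ventral diencephalon named after its values were seen, was at 29.2 to 92.8 CPM in the embryos and at 1.48 and 2.11 CPM in the adults.

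Of 10 pouch and progenitor genes, 5 were higher in the embryo and 1 in the adult (648, 1204 and 1568 CPM, led by *Pitx1*; 933 and 844 CPM, led by *Epcam*). *Sox2* itself, which marks the cells in which the pathway is best known here, was at 26.5 to 44.8 CPM in the embryos, which carry the reporter allele, and at 64.1 and 56.8 CPM in the adults. Of 10 hormone cell genes, 9 were higher in the adult and 0 in the embryo. They summed to 888, 1288 and 1938 CPM in the embryos, led by *Cga*, and to 152850 and 160458 CPM in the adults, led by *Prl* in adult 1 and by *Gh* in adult 2. Of 7 erythroid genes, 6 were higher in the embryo and 0 in the adult, or 2 and 0 after the length and GC correction (6067, 18734 and 212275 CPM, led by *Hbb-y*; 763 and 1977 CPM, led by *Hbb-bs*). In each of the other marker lists, the correction changed neither count by more than 1. No marker in these lists was at 0 in all libraries of a group.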

How the data were processed

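RNA was measured in 7 embryo and 2 adult libraries, each from 1 animal. Per the labels and the study's methods, the authors prepared directional poly(A) libraries, trimmed the reads with Trimmomatic 0.39 and aligned them with STAR 2.7.5b to mouse build mm10 (GRCm38). The deposited values are raw STAR counts per gene, not normalised. The strand-specific count was used, which was 18.4 to 21.8 times the opposite strand in total. Gene names, positions and lengths came from GENCODE M21, to which all 55450 genes were matched.

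Counts were tested with edgeR 4.0.16 in R 4.3.3 (quasi-likelihood test, TMM, minimum mean count 5, stage as the only term, common dispersion 0.190), with Benjamini-Hochberg adjustment over all tested genes. Standard errors were derived from the F statistic. Levels are in CPM or, between genes, in CPM per kb of merged exons. Paralog shares and ratios were tested by exact permutation (scipy 1.17.1). Length and GC content were corrected with 4-df splines over genes averaging 50 counts or more. Alternatives included DESeq2 1.42.0, other scalings and filters, the unstranded count, a replicate block and each library left out.

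The genes and lists were chosen with earlier results of these data known. Named pathway genes are, per list and direction, up to 3 with the largest log2 fold change among those with an adjusted p below 0.05 and a mean count of 100 or more. Markers are named by abundance. Nearest profiles were sought among tested genes averaging 5 CPM or more. Sex was not used, since it is not given per sample.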

Additional observations from a re-analysis of the deposited data

Results flagged for a closer look

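Each of the 10 genes, each share and ratio and the summed Tead level were examined for an embryo far from the other 6 by Dixon's criterion (its 95% critical value for 7 values), 17 series of values in all. Of these, 1 met it: *Cyr61* was at 30.5 CPM in embryo 2, against 11.2 to 17.0 CPM in the other embryos, a gap of 0.697 of the range. Chance alone gives about 1 such embryo in 20 series. Without embryo 2 the log2 fold change of *Cyr61* was 0.14, and without any other single library it was at most 0.48; it did not pass the test in any of these fits.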

How the results depend on the processing

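With either adult left out, the spread is taken from the embryos alone. *Yap1*, *Tead2*, *Tead3* and *Lats1* kept direction and call in all 20 alternative fits, with log2 fold changes of 1.53 to 2.83, 6.04 to 6.36, 3.08 to 3.48 and −2.44 to −0.63. *Ctgf* and *Cyr61* passed in none. With single libraries left out, 3 to 6 members were higher in the embryo, and the log2 fold change was 0.86 to 1.22 for *Wwtr1*, 1.79 to 2.02 for *Tead4* and 0.91 to 1.08 for *Lats2*.

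Scaling by library size alone moved the median of all genes from −0.04 to −0.26 and the share of embryo-high genes among those called at a fold change above 4 from 43.6% to 34.8% (46.7% to 39.1% at any fold). *Wwtr1* (0.91) and *Lats2* (0.77) lost their calls, as did *Fat4* and *Vgll4*. With no filter on low counts *Lats2* (0.98) lost its call. With at least 10 counts in every library 2634 of 13491 tested genes were called at a fold change above 4, in place of 5001 of 19371. With the length and GC correction, 4 members were higher in the embryo and 0 in the adult at a fold change above 4 (8.6% and 12.3% of tested genes). At any fold, 1 was higher in the adult (23.7% of tested genes). *Tead1* (0.24), *Cyr61* (−0.32) and *Mob1b* (0.50) reversed, and the cause was not tested. *Stk3* also lost its call without embryos 1 and 4.

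The difference in Tead share, embryo minus adult, was −74.2 percentage points for *Tead1*, 77.2 for *Tead2*, −1.10 for *Tead3* and −1.87 for *Tead4*. It became −52.0, 63.7, −6.95 and −4.76 with the length and GC correction, and −83.2, 80.0, 3.38 (reversed) and −0.24 with no division by length; with the longest transcript it was −72.2 for *Tead1*. For *Tead3* the difference was −0.46 without adult 1 and −1.74 without adult 2. The ratio of *Lats2* to *Lats1* differed by 3.29 between stages, and by 2.20 with the correction. The corrections of shares, ratios, list counts, levels per length and spreads over embryos, the levels over the longest transcript, the list counts without embryos 1 and 4, all alternatives for pathway genes outside the 10 and for markers, the spreads with an embryo left out, and the fit without a block, were chosen after seeing the data.

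Replicate numbers name different animals. The deviations of animals with the same number correlated at 0.0444 and −0.0128. On replicates 1 and 2, 4151 genes were called at a fold change above 4 with the replicate block and 3975 without. At any fold these counts were 7390 and 6921. *Tead4* (log2 fold change 1.61) and *Lats2* (1.01) did not pass with the block. Neither passed without it (1.62 and 1.01), nor did *Tead1* (−1.19). Without the block, 4 members were thus higher in the embryo and 1 in the adult (17.1% and 17.6% of tested genes).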
